A study of Mus musculus with 8 samples.

Results

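The deposited Rad21 peak lists of 8 CH12F3 libraries held 567 peaks at the assembled pericentromeric edge, out of 199072 peaks in all. The edge was taken as the first 200 kb of assembled sequence on each of the 19 autosomes of mm9, that is every peak on chromosomes 1 to 19 whose start lay below position 3200000. The rule used position alone and no peak height or width. Per library it took between 57 and 99 peaks, and merging across libraries wherever peaks shared 1 bp or more gave 88 edge regions out of 64772 regions.

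CH12F3 cells are mouse B lymphoma cells, inducible to switch from IgM to IgA. All 8 libraries came from AID-/- cells that had received TGF-β, IL4 and anti-CD40 for 72 h, and each of 4 genotypes had 2 libraries. In PS_Ia lines the Sγ3 to Sα segment was deleted in aInv cells, leaving parts of both switch regions. PS_Ca lines carried the same deletion on another parent, in which VH-3'BCEs is deleted from the non-coding IgH allele. In FS_Ia lines Cγ3 to Cα was deleted in aInv cells and both switch regions were kept at full length. In FS_Ca lines Cγ3 to Iα was deleted, again with full-length switch regions, on that second parent. The labels do not say whether a genotype is 1 clone or whether its libraries came from separate cultures, so p-values measure only the spread between these samples. All labelled edits concern the IgH locus, and AID is missing in every group.

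Rad21 is the kleisin subunit of cohesin, the ring that holds sister chromatids together and extrudes chromatin loops. Mouse autosomes have their centromere at one end, where long arrays of minor and major satellite repeats carry the kinetochore and the pericentromeric heterochromatin. Cohesin is enriched in pericentromeric chromatin of dividing cells, where it resists the pull of the spindle until anaphase. The satellite arrays are largely missing from the mm9 chromosomes, which begin with a stretch of unknown bases. The peaks are therefore placed on the first assembled sequence of each chromosome. Whether that sequence itself holds satellite copies, and whether fragments from the arrays were aligned there, was not tested.

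The depth behind the lists is known only through their expected background, which lay between 0.223 fragments per position (FS_Ia replicate 2) and 0.862 (PS_Ia replicate 2). List length ran from 11288 peaks (PS_Ca replicate 2) to 47461 (PS_Ia replicate 2), and summits were called from a height of 3 to 5 fragments upward. A region missing from a list was below its threshold and is not shown to be absent. One background applied to the whole genome in each list, so a peak's fold, which is the authors' value, takes no account of how often its sequence occurs in the cells. More Rad21 and more copies of a sequence in the cells than in the assembly cannot be told apart in these lists. No bases of mm9 were at hand, so no sequence is printed for the regions.

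Peaks were spread very unevenly over the chromosomes. Chromosome 11 held 255 of the 567 edge peaks (45.0%), chromosome 4 held 60, chromosome 18 held 44, chromosome 17 held 37, chromosome 16 held 36 and chromosome 9 held 33. Chromosomes 6, 10, 12, 5 and 7 held 26, 18, 12, 10 and 12 peaks. Chromosomes 15, 2, 19, 13 and 3 held 8, 7, 5, 3 and 1. No library had an edge peak on chromosomes 1, 8 or 14. In all, 9 chromosomes had an edge peak in every library and 7 in some libraries only. The same 9 chromosomes, namely 4, 6, 9, 10, 11, 12, 16, 17 and 18, each had at least 1 region found in all 8 libraries.

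**Figure D1:**
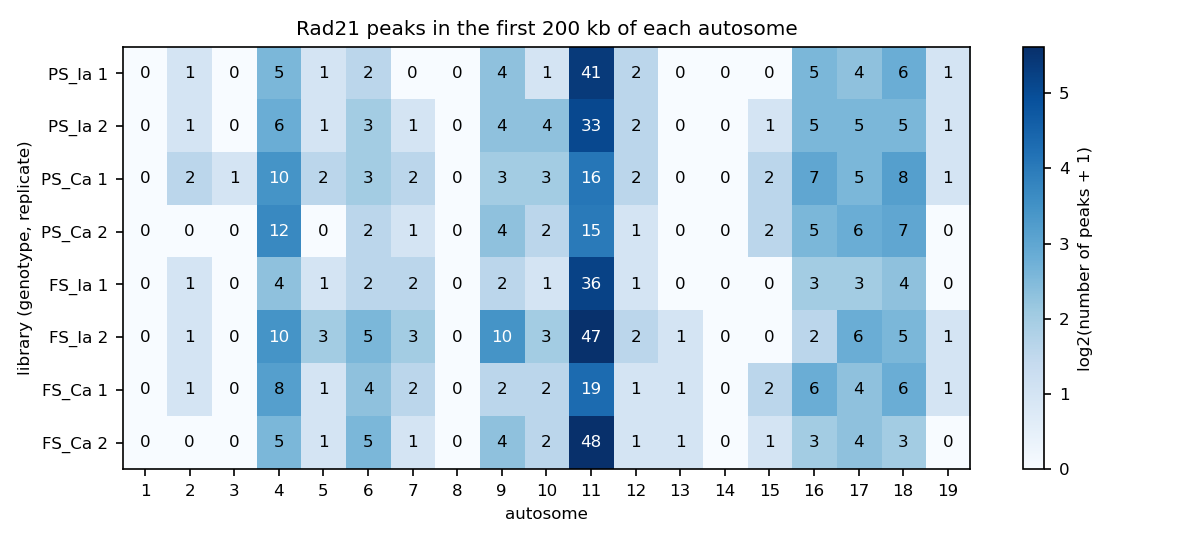
Number of Rad21 peaks in the first 200 kb of each autosome (columns) in each library (rows, genotype and replicate), with colour on a log2(number + 1) scale. Chromosome 11 has 15 to 48 peaks per library, and chromosomes 1, 8 and 14 have none.

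Height followed another order than number. By the median fold of its edge peaks over all libraries, chromosome 9 stood highest at 175, followed by chromosome 12 at 124. The medians of the other chromosomes lay between 4.31 on chromosome 2 and 9.59 on chromosome 11. Chromosomes 16 and 18 had medians of 6.20 and 8.64 but single peaks up to 66.0 and 86.1. Width differed in the same uneven way: the median edge peak was 5363 bp wide on chromosome 9 and 1238 bp on chromosome 11, against 246 to 612 bp on the other chromosomes with a peak.

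**Figure D2:**
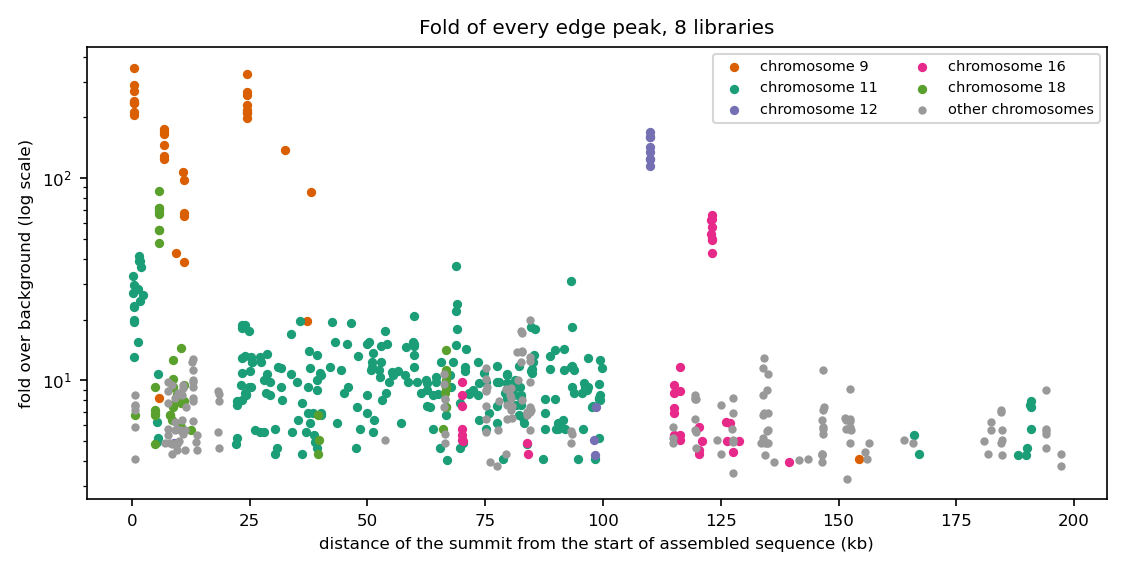
Fold over background (log axis) of each of the 567 edge peaks against the distance of its summit from the start of assembled sequence (kb), with 5 chromosomes in colour. The tallest points belong to chromosome 9 (up to 353), chromosome 12 (115 to 169), chromosome 18 (up to 86.1) and chromosome 16 (up to 66.0). Those of chromosomes 12, 18 and 16 each lie at a nearly fixed distance, while those of chromosome 9 are spread over the start of its assembled sequence. Chromosome 11 fills the first 100 kb at lower folds.

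Chromosome 9 carried the strongest edge signal. It began with a nearly unbroken block of peaks from position 2999890 to 3038420, split by a short gap into the regions 2999890 to 3008888 and 3009126 to 3038420, both found in all 8 libraries. In the first region the tallest summit had a fold of 289 and 212 in the PS_Ia libraries (replicates 1 and 2), 240 and 206 in PS_Ca, 353 and 236 in FS_Ia, and 270 and 237 in FS_Ca. This was rank 2 of the whole list in 7 libraries and rank 4 in PS_Ca replicate 2, where rank 1 is the tallest peak. In the second region the tallest summit had folds of 266 and 199 in PS_Ia, 218 and 210 in PS_Ca, 327 and 231 in FS_Ia, and 259 and 213 in FS_Ca, at rank 3 or 4 of its list.

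The extent of this block was almost the same in each library. Its end lay within 75 bp and its start within 79 bp over the 8 lists, and peaks covered 95.2 to 99.3% of it. The summits of both regions lay within 24 and 42 bp of each other. After the block, chromosome 9 had no further peak for at least 273 kb in 7 libraries, and FS_Ia replicate 2 had a small peak 116 kb beyond it. The number of pieces varied more. The block was called as 4 peaks in each PS_Ia library, 3 and 4 in PS_Ca, 2 and 9 in FS_Ia, and 2 and 4 in FS_Ca. The 9 pieces belonged to FS_Ia replicate 2, the library with the lowest background. The widest peak of every list lay in this block: 27.0 and 26.9 kb in PS_Ia, 29.3 and 26.9 kb in PS_Ca, 29.3 and 14.7 kb in FS_Ia, and 29.2 and 27.0 kb in FS_Ca.

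Chromosome 11 had the longest stretch. Its first 2 regions, 2999964 to 3000724 and 3000989 to 3002993, were found in all 8 libraries and were the tallest of that chromosome's edge in 7 of them. In the second, the fold was 38.8 and 28.5 in PS_Ia, 41.2 and 39.1 in PS_Ca, 36.4 and 15.5 in FS_Ia, and 26.5 and 24.8 in FS_Ca. FS_Ia replicate 2 was low, at rank 1988 of its list, whereas the other libraries ranked it between 23 and 100. Then followed a block of peaks from about 22 kb to 100 kb, merged into 5 regions of all 8 libraries (3022788 to 3026225, 3026788 to 3048774, 3049534 to 3051655, 3052152 to 3080422 and 3080652 to 3100034), with best folds of 5.55 to 36.8. In FS_Ia replicate 2 the order was reversed: the block reached 36.8, while the 2 regions before it had folds of 13.1 and 15.5.

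The block on chromosome 11 ended between positions 3099171 and 3100034 in every list, a spread of 863 bp, and the next peak began 66.0 to 147 kb farther on. It spanned 76.4 to 78.3 kb. Libraries differed in how it was broken up. It was called as 37 and 26 peaks in PS_Ia, 12 and 13 in PS_Ca, 34 and 44 in FS_Ia, and 17 and 43 in FS_Ca. Covered length ran the other way, with 59.6 and 67.6 kb in PS_Ia, 73.8 and 73.6 kb in PS_Ca, 63.9 and 56.0 kb in FS_Ia, and 70.4 and 59.2 kb in FS_Ca. The 3 libraries with the fewest peaks there thus had the largest covered length, and the 2 with the most peaks had the smallest.

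**Figure D3:**
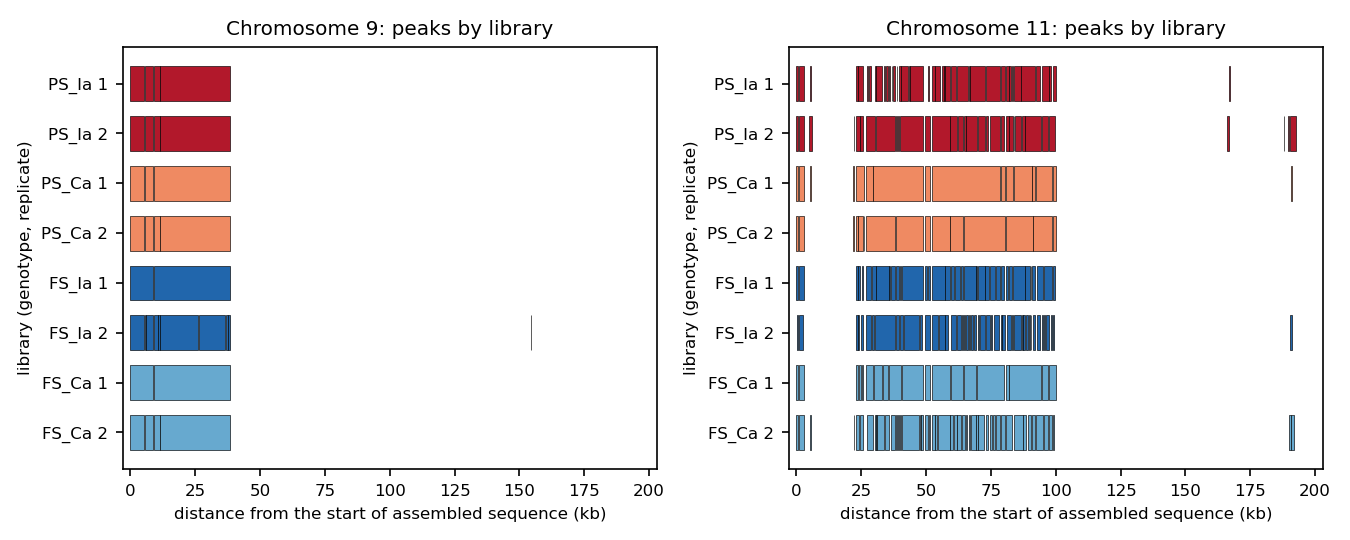
Peaks along the first 200 kb of chromosomes 9 and 11 (distance from the start of assembled sequence, kb), with 1 row per library and each bar a peak drawn to scale. The block on chromosome 9 ends at the same place in all 8 libraries, and the one on chromosome 11 spans 76.4 to 78.3 kb in pieces that number from 12 to 44.

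On both chromosomes the signal ran up to the limit of the assembly. In all, 13 peaks on these 2 chromosomes reached 4 to 111 bp into the bases up to position 3000000, and none ended there. All 8 libraries had such a peak on chromosome 9, and PS_Ia replicate 1, PS_Ca replicate 1, FS_Ia replicate 1 and both FS_Ca libraries had another on chromosome 11. A low peak close to the limit, chosen after its values were seen, was found on chromosome 6 at 3000448 to 3000877, in 6 libraries with folds of 4.09 to 8.46.

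The other tall edge regions were single peaks in each library. On chromosome 12, far from the Igh locus at the other end of that chromosome, the region 3109751 to 3110242 had folds of 135 and 115 in PS_Ia, 124 and 142 in PS_Ca, 169 and 160 in FS_Ia, and 159 and 125 in FS_Ca. It ranked between 7 and 10 in every list, was at most 492 bp wide, and its summits lay within 11 bp. Its height was 218 and 213 fragments in PS_Ia, 219 and 225 in PS_Ca, 217 and 195 in FS_Ia, and 221 and 215 in FS_Ca. These heights were close together although the expected background of the same libraries ranged from 0.223 to 0.862 fragments.

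On chromosome 18 the region 3005267 to 3006292 had folds of 70.9 and 55.3 in PS_Ia, 71.1 and 66.8 in PS_Ca, 68.9 and 55.6 in FS_Ia, and 86.1 and 47.9 in FS_Ca. Its summits lay within 5 bp, the closest of the edge regions found in all 8 libraries. On chromosome 16 the region 3122000 to 3124524 had folds of 53.0 and 49.9 in PS_Ia, 66.0 and 42.8 in PS_Ca, 61.9 and 63.0 in FS_Ia, and 57.4 and 49.7 in FS_Ca. The region on chromosome 16 was wide, with peaks of 1.42 to 2.39 kb. Both regions ranked between 12 and 28 in their lists. Together with the 2 regions of chromosome 9 and that of chromosome 12, these were the 5 edge regions of all 8 libraries whose mean percentile rank was below 1, where 0 is the tallest peak of a list.

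Below these the values dropped to ordinary heights. On chromosome 17 the region 3081355 to 3085245 had best folds of 8.01 and 19.9 in PS_Ia, 17.5 and 13.9 in PS_Ca, 12.4 and 13.9 in FS_Ia, and 10.0 and 13.9 in FS_Ca. The remaining regions of all 8 libraries lay on chromosome 18 (3007555 to 3009671 and 3065739 to 3067442), chromosome 10 (3012100 to 3014044), chromosome 4 (3074700 to 3075843 and 3119436 to 3119998) and chromosome 6 (3133257 to 3134623). Their best folds ranged from 4.30 to 14.2 and their mean percentile ranks from 18.9 to 48.3. In single libraries they ranked as low as percentile 92.8 (chromosome 4, 3119436 to 3119998), and no library lacked them.

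Recurrence was graded, with most regions at either end. Of the 88 edge regions, 19 (21.6%) were found in all 8 libraries, against 10.4% of all regions, and 34 (38.6%) in a single library, against 52.6% of all regions. Chromosome 11 held 7 of the 19 among its 13 edge regions, and chromosome 9 held 2 of the 19 among its 3. The 19 held 365 of the 567 edge peaks, many of them pieces of the blocks on chromosomes 9 and 11. Single-library regions came from FS_Ia replicate 2 (13 regions), PS_Ca replicate 1 (8), PS_Ca replicate 2 and FS_Ca replicate 1 (4 each), both PS_Ia libraries (2 each) and FS_Ca replicate 2 (1). Chromosome 4 alone held 12 of the 34, beside 2 regions of all 8 libraries. Their median width was 281 bp, whereas that of the 19 recurrent regions was 2117 bp. The latter is no trait of the edge: regions of all 8 libraries over the whole series had a median width of 2022 bp.

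Within a list, edge peaks were over-represented among the tallest. Of the tallest 100 peaks by fold, 9 and 8 lay at the edge in PS_Ia, 7 and 14 in PS_Ca, 7 and 11 in FS_Ia, and 6 and 8 in FS_Ca. Of the tallest 20, 5 or 6 did so in each library, and of the tallest 10, 3 or 4. The share of the tallest 100 at the edge was 8.75% ± 2.60, against 0.286% ± 0.0915 of the remaining peaks (SD, n = 8 libraries). The difference of 8.46 percentage points was positive in 8 of 8 libraries (exact two-sided sign-flip permutation test, p = 0.00781, the smallest that 8 libraries allow; p = 0.0130 after Benjamini-Hochberg adjustment over the 5 comparisons of edge and other peaks). Of the 70 such peaks over all lists, 30 lay on chromosome 9, 16 on chromosome 11 and 8 each on chromosomes 12, 16 and 18, and none elsewhere. Those of chromosome 9 were pieces of its block and not separate sites. They made up 7 of the 11 in FS_Ia replicate 2, but 2 in FS_Ia replicate 1 and in FS_Ca replicate 1. In PS_Ca replicate 2, 7 of the 14 lay on chromosome 11. Without chromosomes 9 and 11 the difference was 2.82 points (adjusted p = 0.0391, exact permutation test). Of the 70 peaks, this leaves those in the tall regions of chromosomes 12, 16 and 18, which all 8 libraries held. The same regions thus set the sign in every library, and the test cannot speak for other edge peaks.

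**Figure D4:**
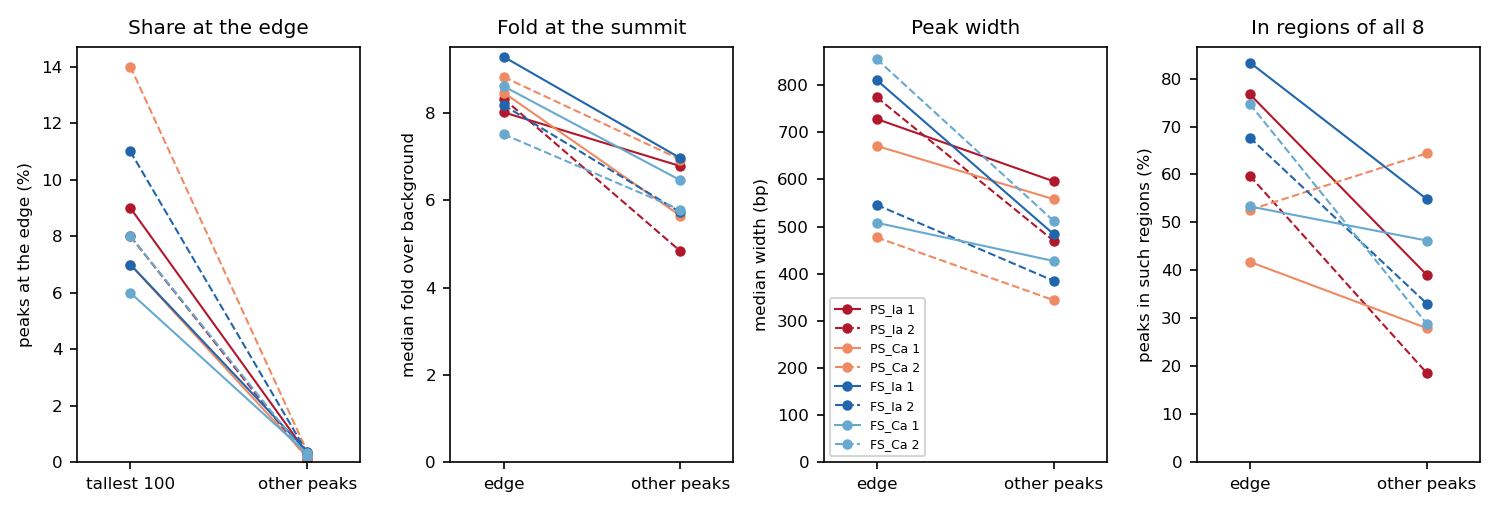
Comparisons within each list, with a line per library joining its edge value (left) to that of its other peaks (right): percent of the tallest 100 and of the other peaks at the edge, median fold, median width in bp, and percent of peaks in regions of all 8 libraries. Solid lines are replicate 1 and dashed lines replicate 2; all lines fall in the first 3 panels, and PS_Ca replicate 2 rises in the last.

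Edge peaks were also taller and wider at the median. The median fold was 8.40 ± 0.535 at the edge and 6.14 ± 0.763 elsewhere (SD, n = 8), a log2 ratio of 0.46 ± 0.17 that was positive in 8 of 8 libraries (exact sign-flip permutation, adjusted p = 0.0130). The median width was 671 ± 145 bp at the edge and 472 ± 84.9 bp elsewhere, a log2 ratio of 0.50 ± 0.22, again positive in 8 of 8 libraries (exact permutation, adjusted p = 0.0130). Peaks over 2 kb made up 12.1 to 27.8% of the edge peaks in a library, against 0.175 to 4.73% of its other peaks. Nearly all of them lay on chromosomes 9 and 11. A library had 12 to 20 such edge peaks, but only 0 to 2 outside these chromosomes. Without chromosome 9 the log2 ratios were 0.43 for fold and 0.46 for width (exact permutation, adjusted p = 0.0130 for both). Without chromosome 11 they were 0.23 for fold (adjusted p = 0.0391, exact permutation) and -0.034 for width (adjusted p = 0.609). Without both chromosomes the ratio was 0.14 for fold (exact permutation, adjusted p = 0.0521) and -0.18 for width (adjusted p = 0.0391), with narrower edge peaks in 7 of 8 libraries; FS_Ca replicate 2 had 514 bp at the edge and 511 bp elsewhere. In lists cut to equal length the fold ratio was 0.16 (exact permutation, adjusted p = 0.0625).

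Edge peaks lay in regions of all 8 libraries more often than others. The share was 63.7% ± 14.2 at the edge and 39.2% ± 15.2 elsewhere (SD, n = 8), a difference of 24.6 points that was positive in 7 of 8 libraries (exact sign-flip permutation, p = 0.0234; adjusted p = 0.0293). PS_Ca replicate 2, the shortest list, went the other way with 52.6% and 64.4%. The difference turned to -2.39 points without chromosomes 9 and 11, and to -12.5 points (adjusted p = 0.0293, exact permutation) when regions were built from summits ± 100 bp, which split the blocks. It also missed the threshold (exact permutation, adjusted p = 0.0586) without FS_Ia replicate 1 or 2, or FS_Ca replicate 1 or 2.

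Compared with windows of the same size farther in, the edge stood out more by covered length than by number. Most of that length lay on chromosomes 9 and 11. In the next 200 kb of the same chromosomes the libraries had 43 and 82 peaks in PS_Ia, 68 and 34 in PS_Ca, 30 and 49 in FS_Ia, and 39 and 55 in FS_Ca. The edge itself had 73 and 72 peaks in PS_Ia, 67 and 57 in PS_Ca, 60 and 99 in FS_Ia, and 60 and 79 in FS_Ca. It held more than the next window in 6 of 8 libraries, by a mean of 20.9 ± 18.7 peaks (SD, n = 8; exact sign-flip permutation, p = 0.0312; adjusted p = 0.0312), but fewer in PS_Ia replicate 2 and PS_Ca replicate 1. The adjusted p was 0.0625 (exact permutation) without any 1 of the other 6 libraries. Without chromosome 11 the difference was -3.38 peaks (exact permutation, adjusted p = 0.609).

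Over the 50 windows from the edge to 13 Mb, the edge had the most peaks in 6 libraries and the largest covered length in all 8. Edge peaks covered 119 and 137 kb in PS_Ia, 149 and 132 kb in PS_Ca, 119 and 117 kb in FS_Ia, and 131 and 121 kb in FS_Ca. That was 3.28 to 26.0 times the mean covered length of the 49 windows farther in, with the highest ratio in the shortest list. Chromosomes 9 and 11 held 83.7% of the covered edge length over all libraries. On the other chromosomes, edge peaks covered 13.8 to 32.9 kb per library. In PS_Ia replicate 2 and FS_Ca replicate 2 this was 23.9 and 19.1 kb, below window means of 41.6 and 27.2 kb. In every other library it exceeded the window mean. Those means include chromosomes 9 and 11, and windows without them were not tested for covered length. None of the tallest 100 peaks of any list lay in the window next to the edge. That window had the most peaks, or as many as any, of these 49 windows in 5 libraries. The number of edge peaks ranged from 57 to 99 over the libraries, while the mean of the 49 windows ranged from 13.1 to 59.2 peaks. Without chromosomes 9 and 11 the edge number ranged from 22 to 48. A relation of either to list length was not tested.

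**Figure D5:**
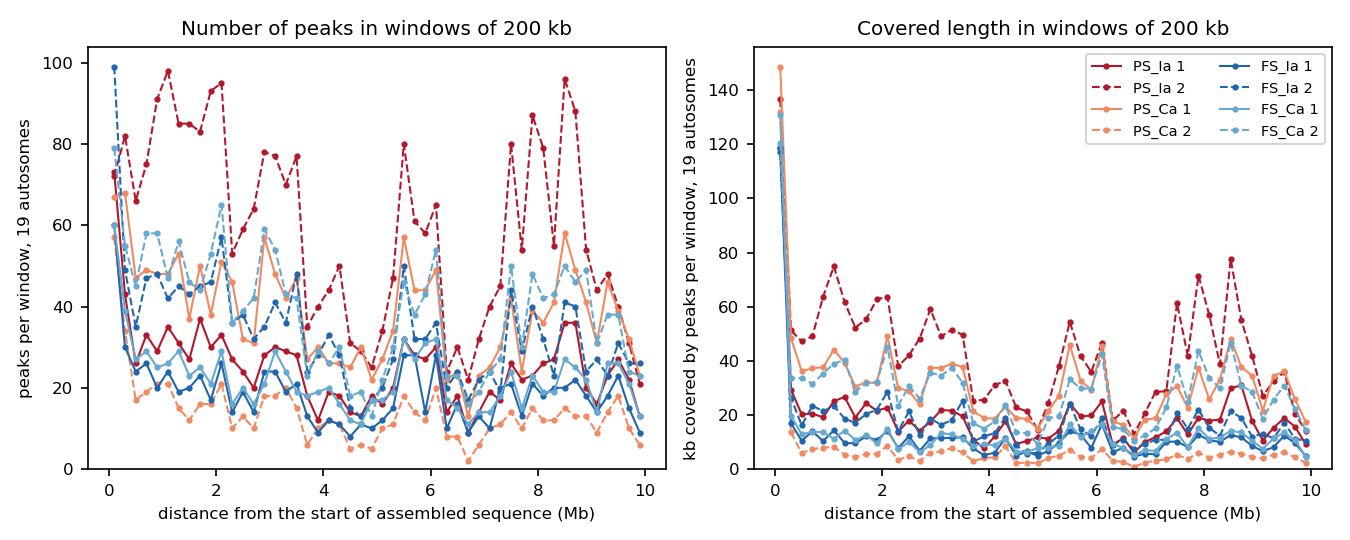
Peaks (left) and kb covered by peaks (right) in windows of 200 kb summed over the 19 autosomes, against the distance of the window's middle from the start of assembled sequence (Mb), with solid lines for replicate 1 and dashed lines for replicate 2. The first window covers 117 to 149 kb in every library, above all later windows, whereas by number the first window of PS_Ia replicate 2 ranks 19 of 50 and that of PS_Ca replicate 1 ranks 2.

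Within the edge itself the signal thinned out with distance. The first 50 kb held 225 peaks with a median fold of 9.28, the next 50 kb 214 with 8.67, those from 100 to 150 kb 85 with 6.21 and those from 150 to 200 kb 43 with 5.42. Of the 70 peaks among the tallest 100, 49 lay in the first 50 kb and 16 between 100 and 150 kb, which were those of chromosomes 12 and 16. Without chromosome 11 the 4 bins held 120, 73, 85 and 34 peaks, which is no steady fall in number. Their median folds were 8.61, 7.51, 6.21 and 5.53. The medians of all these bins pool the peaks of all lists, which differ in background. The pieces of the chromosome 9 block are still counted in the first of these bins, and bins without both chromosomes were not made. Just inside the limit of 200 kb lay low peaks on chromosome 7 (3193815 to 3194674, 5 libraries, folds 4.62 to 8.99) and chromosome 10 (3196857 to 3197326, 2 libraries, folds 3.76 to 4.30). Just outside lay chromosome 2, 3201998 to 3202261, in 1 library with a fold of 4.09, and chromosome 19, 3204010 to 3204865, in 3 libraries with folds of 3.76 to 5.64.

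The study is about the orientation in which switch regions are joined, so the edge was also compared over the engineered alleles. By orientation, Ia libraries averaged 76.0 ± 16.4 edge peaks, against 65.8 ± 9.78 for Ca (SD over 4 libraries a side). The difference of 10.2 peaks was within that spread (two-sided exact permutation test, p = 0.4; after adjustment over the 4 contrasts of number and share, p = 0.838). As a share of the list, its peaks made up 0.330% ± 0.123 in Ia and 0.330% ± 0.129 in Ca (two-sided exact permutation test, raw and adjusted p = 1). The smallest p that 4 against 4 allows is 0.0286. Every Ia line came from aInv cells and every Ca line from the parent with the VH-3'BCEs deletion, so orientation and parent line cannot be told apart in this or any other Ia against Ca contrast.

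By switch length, the edge held 67.2 ± 7.32 peaks in PS and 74.5 ± 18.6 in FS libraries (SD over 4 libraries a side). The difference of -7.25 peaks was also within the spread (exact permutation test, raw p = 0.6, adjusted p = 0.838), and it was 0.917 without FS_Ia replicate 2. For the share, PS averaged 0.307% ± 0.157 and FS 0.353% ± 0.0768, with a raw p of 0.629 and an adjusted p of 0.838 by the same exact test; without PS_Ia replicate 2 the difference was 0.00588 points. The effect of orientation on the share was -0.107 points in PS and 0.107 points in FS, a difference of -0.214 (exact permutation of orientation within switch length, p = 0.278). None of these contrasts was larger than the spread between libraries.

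Peak names fell into 3 sets by prefix, namely all FS libraries, the replicate 1 and the replicate 2 libraries of PS. For edge number, Ia exceeded Ca by 6 peaks within PS replicate 1, by 15 within PS replicate 2 and by 10 within FS. The share differed by 0.138 points within PS replicate 1, by -0.353 within PS replicate 2 and by 0.107 within FS. Since each set is all PS or all FS, the set and the switch length cannot be told apart.

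The difference in number by orientation came from chromosome 11. There, 41 and 33 edge peaks were called in PS_Ia and 36 and 47 in FS_Ia, against 16 and 15 in PS_Ca and 19 and 48 in FS_Ca, with FS_Ca replicate 2 apart from the other Ca libraries. On average Ia had 39.2 ± 6.13 and Ca 24.5 ± 15.8 (SD over 4 libraries a side; exact permutation test, p = 0.143; p = 0.571 after adjustment over 8 tests of measures added after seeing the data). Within the prefix sets the excess of Ia on chromosome 11 was 25 peaks (PS replicate 1), 18 (PS replicate 2) and 8 (FS). On the other chromosomes Ia libraries had 36.8 ± 11.9 and Ca libraries 41.2 ± 8.18 edge peaks (exact permutation, p = 0.571; adjusted p = 0.657). The covered length had the opposite sign to the number, with 123 ± 9.27 kb in Ia and 133 ± 11.6 kb in Ca libraries (exact permutation, p = 0.286; adjusted p = 0.571). Within the prefix sets that difference was -29.9 kb (PS replicate 1), 4.68 kb (PS replicate 2) and -8.01 kb (FS). By switch length, PS covered 134 ± 12.4 kb and FS 122 ± 6.30 kb (p = 0.114 by the exact permutation test, 0.571 adjusted).

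Edge regions specific to one orientation or one switch length were counted, but not those specific to a single genotype. By orientation, 0 of the 88 edge regions had a peak in all 4 libraries of one side and in none of the other, where 0.0479% of all regions did (0.0247% Ia only and 0.0232% Ca only). With so small a share over all regions, a count of 0 among 88 tells little about the edge. By switch length 1 region did so, again against 0.0479% of all regions (0.0401% PS only and 0.00772% FS only). It lay on chromosome 16 at 3116203 to 3116575, beside the tall region of that chromosome. Its folds were 11.7 and 5.37 in PS_Ia and 5.08 and 8.82 in PS_Ca, with summits of 18, 9, 8 and 13 fragments, and no FS list held it. The nearby region 3114922 to 3115590, also picked after its values were seen, was held by all PS libraries and by FS_Ca replicate 2. The summits in PS_Ca replicate 1 and PS_Ia replicate 2 were 3 to 4 fragments above the lowest called ones, and the region is not held at a threshold of −log10 q of at least 5 in all 4 PS lists. With 1 library left out, the counts rose to at most 1 region for orientation (without PS_Ia replicate 1 or 2). For switch length they rose to 3 without PS_Ca replicate 2 or FS_Ia replicate 1. They were 2 without PS_Ia replicate 1, PS_Ca replicate 1 or either FS_Ca library. Leaving a library out loosens the rule, and the share over all regions under the looser rule is not given here. The rise is therefore no result about the edge.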

How the data were processed

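Rad21 ChIP-seq peak lists of 8 libraries were analysed as deposited. The submitters' processing notes name MACS2 2.2.7.1 for mm9, along with Bowtie2 2.4.4, deepTools 3.5.1 and SAMtools 1.15.1. No settings, and no control library, are stated in the labels. There is 1 list of 10 columns per library. The deposited values are the authors' score, the fold ratio at the summit over the expected background, and −log10 p and −log10 q values. For ranks and for tests of fold these were used within a list only. The median folds per chromosome and per distance bin pool the peaks of all 8 lists. Those lists differ in background, and a list with more peaks weighs more in a pooled median. Heights were recovered from fold as (height + 1) over (background + 1), whole within 0.01 for all peaks, with 1 background per library. Read totals are not given, so no counting intervals were made.

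Edge peaks had a start below 3200000 on chromosomes 1 to 19. Ranks used fold. A library held a region if it had a peak in it. Levels were compared over the 70 exact assignments of 4 against 4 libraries, two-sided, and edge and other peaks by sign flips over 8 libraries (256 patterns), both with Benjamini-Hochberg adjustment. Named regions were the best of each chromosome and the 10 best-ranked among those of all 8 libraries, those specific to one level, and the tallest edge peak of each list; the rest of the recurrent regions and those near a limit were added after their values were seen. The region rule and the lists were chosen with earlier results of these data known. Alternatives were other thresholds, edge lengths, overlaps, chromosomes and libraries, and a replicate block. Software was matplotlib 3.10.9, scipy 1.17.1, pandas 2.3.3, numpy 2.4.6 and Python 3.11.15. Scripts were tested on simulated lists, where 100% of heights were recovered. Those heights were simulated with the same formula that recovers them, so this checks the code and not the deposited values.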

Additional observations from a re-analysis of the deposited data

Results flagged for a closer look

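Among 70 groups of values examined, 6 had a library far from the others by Dixon's test. Chance gives about 1 in 20, and whole numbers with small ranges are flagged easily. Covered length at the edge was 137 kb in PS_Ia replicate 2, against 119 kb in the nearest of the other Ia libraries. FS_Ia replicate 2 had 10 edge peaks on chromosome 9, where no other library had more than 4. FS_Ca replicate 2 had 48 edge peaks on chromosome 11, against at most 19 in the other Ca libraries. PS_Ca replicate 1 differed by few peaks: it had 3 on chromosome 9 where the other PS libraries had 4, 3 on chromosome 10 where the other Ca libraries had 2, and 7 on chromosome 16 where the other PS libraries had 5.

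The same stretch of chromosome X, which the rule leaves out, held 15 and 9 peaks in PS_Ia, 42 and 74 in PS_Ca, 15 and 18 in FS_Ia, and 36 and 3 in FS_Ca. The 74 peaks of PS_Ca replicate 2 exceed its 57 autosomal edge peaks. Chromosome Y had 0 such peaks in all 8 lists.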

How the results depend on the processing

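The share of the tallest peaks at the edge kept its direction and its side of the threshold under every alternative run, from 1.82 points (tallest 500) to 27.8 points (tallest 20). These runs are not independent: the edge peaks among the tallest 100 lay on the same 5 chromosomes in every list. Median fold was 0.16 (log2) in lists of equal length and 0.14 without chromosomes 9 and 11, which no longer passed the threshold. Median width was -0.034 (log2) without chromosome 11 and -0.18 without chromosomes 9 and 11. The difference in recurrence was 3.86 points without chromosome 11, -2.39 without chromosomes 9 and 11, and -12.5 with regions from summits. Edge minus next window was -3.38 peaks without chromosome 11 and -7.25 without chromosomes 9 and 11. Chromosome 11, and 9 with it, was left out after seeing the data, as were covered length and merged regions used in place of peak number.

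None of the contrasts between levels passed the threshold under any alternative, and several changed sign. For peak number, Ia minus Ca was -4.5 without chromosome 11, -6.25 without chromosomes 9 and 11, -10.3 in covered kb and -4.75 in merged regions. PS minus FS was 4 without chromosome 11, 4.75 without chromosomes 9 and 11, 11.2 in the first 500 kb, 12.1 in covered kb and 3.75 in merged regions. For the share, Ia minus Ca was -0.000453 points as reported, 0.0208 at −log10 q of at least 5, 0.0465 in lists of equal length, 0.0280 in the first 100 kb, 0.138 within the replicate 1 libraries of PS and 0.107 within the FS libraries. PS minus FS was 0.0181 without chromosome 11 and 0.0200 without chromosomes 9 and 11. Regions of one switch length were 0 at −log10 q of at least 5, in lists of equal length and in the first 100 kb, and lists of equal length gave 1 region of one orientation. The cause was not tested.

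With each library left out in turn, Ia minus Ca ranged from 2.58 to 15.6 peaks and from -0.0384 to 0.0588 points, and PS minus FS from -12.1 to 0.917 peaks and from -0.112 to 0.00588 points. The difference between orientation effects ranged from -0.358 to -0.0696 points. Edge and other peaks differed by 7.73 to 8.86 points among the tallest, 0.41 to 0.49 in fold and 0.46 to 0.53 in width (both log2), 21.9 to 26.4 points in recurrence and 16.7 to 25.3 peaks from the next window. Regions of one orientation numbered 0 to 1, and of one switch length 1 to 3, with no share over all regions given for these looser rules. Replicate numbers were not shown to pair libraries across genotypes: over 23986 regions, the deviations of same-numbered libraries correlated by 0.00184 to 0.173. With the replicate block, Ia minus Ca stayed 10.2 peaks (exact permutation, adjusted p = 1), where 4 pairs allow no p below 0.125.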
